A study of Mus musculus with 12 samples.

Results

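Glutathione transferase genes were described across 12 polysome libraries from 6 mouse livers. The 10 genes were taken from the 27179 gene IDs of the count tables: Gstp1 and Gstp2 (pi class), Gstm1, Gstm2 and Gstm3 (mu class), Gsta2, Gsta3 and Gsta4 (alpha class), Gstk1 (kappa class) and Gstt1 (theta class). They were chosen by name, with their heavy-over-light ratio in these livers already known, so that ratio is given below as a description and supports nothing. The livers came from male mice on the C57BL/6 background. The keto group held 2 wild-type animals given a ketogenic diet (mostly fat, with little carbohydrate) for 24 h. The S209A group was 1 animal, fed chow, with both eIF4E alleles carrying the S209A change, which replaces the serine of this cap-binding protein that MNK kinases phosphorylate. The chow group held 3 wild-type animals. The 24 h diet time was assigned to chow 1 and 2 as well. No time was assigned to chow 3 and S209A, which are titled "fed". The labels give no ages. Each liver gave a heavy and a light pool of sucrose gradient fractions, where heavy polysomes carry many ribosomes per mRNA and light ones few.

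Glutathione transferases join the tripeptide glutathione to electrophiles such as drugs, carcinogens and lipid peroxidation products, which can then be exported and excreted. The cytosolic classes act as dimers and are abundant in liver, and the kappa enzyme lies in mitochondria and peroxisomes. Many of the genes respond to NRF2, CAR or PXR, transcription factors that sense oxidants and foreign compounds. The mouse pi class genes stand side by side on chromosome 19 and differ little in sequence, so that short reads from the copies are hard to place.

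The start regions of Gstp1 and Gstp2 were compared. The genes lie at chr19:4035411-4037912 and chr19:4040288-4042221, both on the minus strand (RefSeq, GRCm38.p6). The 250 bases before each transcription start are chr19:4037913-4038162 for Gstp1 and chr19:4042222-4042471 for Gstp2. Both are printed 5′ to 3′ on the strand of the gene, with capitals for matches to TGANTCA (the AP-1 element) and GGGCGG (the GC box):
Gstp1: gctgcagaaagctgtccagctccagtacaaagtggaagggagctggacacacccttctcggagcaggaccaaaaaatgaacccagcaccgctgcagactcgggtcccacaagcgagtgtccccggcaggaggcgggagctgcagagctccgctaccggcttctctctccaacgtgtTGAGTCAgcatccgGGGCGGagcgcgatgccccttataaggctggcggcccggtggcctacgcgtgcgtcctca
Gstp2: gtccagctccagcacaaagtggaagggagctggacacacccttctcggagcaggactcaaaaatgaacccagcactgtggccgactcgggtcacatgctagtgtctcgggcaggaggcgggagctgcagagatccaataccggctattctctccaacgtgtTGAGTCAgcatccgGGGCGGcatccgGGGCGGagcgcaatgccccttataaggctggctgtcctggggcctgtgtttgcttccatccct
Aligned over 265 columns, 207 bases were identical, or 78.11%. Over the first 50 transcribed bases identity was 60.71%. The bases before the start are not transcribed, so their identity does not bear on how reads are placed. The rest of the transcripts was not compared. In Gstp1 the AP-1 element began 74 bases before the start and the GC box 60 bases before it. In Gstp2 the AP-1 element began 89 bases before the start, with GC boxes at 75 and 63 bases. Matches on either strand to TGANTCA were found in 6.75% of 32851 RefSeq promoter windows, searched over the 250 bases before the start, and to GGGCGG in 32.7%. The table held such a window for 9 of the 10 genes, Gsta4 being the other. Among those 9, only Gstp1 and Gstp2 held TGANTCA, and Gstk1 and Gstm3 also held GGGCGG.

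A match to TGACNNNGC, the core of the antioxidant response element that NRF2 binds, was found in 10.2% of all these promoters. Of the 9 genes with a window Gsta3 held one. It began 121 bases before the start, and the 61 bases around it on the plus strand, chr1:21240438-21240498, are shown with the match in capitals:
Gsta3: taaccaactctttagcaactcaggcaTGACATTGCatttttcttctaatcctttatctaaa
A CCAAT match on either strand was found in 33.8% of all promoters and in Gstp2, Gstm1, Gstm2, Gsta2, Gsta3 and Gstt1. These are matches of letters, and no binding was measured here.

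The libraries held 3341046 counts (S209A light) to 13263355 counts (keto 1 heavy). Nuclear protein-coding genes held 4.09% to 39.3% of them, or 356666 counts (keto 2 light) to 1777315 (chow 3 heavy). All 8 hepatocyte markers, such as Alb, had counts in every group, and the tissue label was borne out by them. The tables of chow 3 and S209A name the aligner HISAT2, those of chow 1 and chow 2 name Bowtie2, and those of keto 1 and keto 2 name no aligner. The titles split the livers into "fed" for chow 3 and S209A and chow or keto for the other 4. Keto and chow 1 and 2 thus share a class by title and not by aligner. Every chow table names an aligner and no keto table does, so diet and processing cannot be told apart wherever keto is set against chow. Levels are given as CPM, counts relative to the TMM-scaled library size (TMM evens out differences in RNA composition), and are compared between libraries and not between genes.

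All 10 genes passed the filter on low counts, which left 10555 genes. Gsta3 had 118 to 1816 counts per library, Gstp1 32 to 1648 and Gstm1 67 to 1327. Gstm3 never exceeded 15 counts and was at 0 in 4 libraries, Gsta2 never exceeded 27 and was at 0 in 1, and Gstm2 was at 0 in 2. Values of these 3 genes rest on few reads.

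The pi class gene Gstp1 was low in the heavy pool of the keto livers and overlapped chow in the light pool. In heavy pools Gstp1 had 5.03 and 7.73 CPM in keto 1 and keto 2, against 71.8, 22.3 and 13.6 CPM in chow 1, 2 and 3. Both keto libraries lay below every chow library, and the chow libraries themselves spanned more than the gap to keto. The fitted difference was log2 -2.48 ± 0.73 (SE, keto over chow), which did not pass over all genes (edgeR adjusted p = 0.490). Without chow 3 it was -2.84 and passed (edgeR adjusted p = 0.0246), as it did in DESeq2 with all livers (-2.51, adjusted p = 0.0333). Without chow 1 it was -1.49 (edgeR adjusted p = 0.573). In light pools Gstp1 had 21.5 and 44.9 CPM in keto and 24.5, 22.6 and 63.9 CPM in chow. The groups overlapped there, and the fitted difference was log2 -0.18 ± 0.61 (edgeR adjusted p = 0.976).

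Gstp2, the neighbouring pi class copy, had 5.50 and 6.95 CPM in the heavy pools of keto 1 and 2, against 34.0, 16.4 and 0.656 CPM in those of chow 1, 2 and 3. The chow 3 value was the lowest of the 5, so the groups overlapped, and the fitted difference was log2 -1.43 ± 1.03 (edgeR adjusted p = 0.757). In light pools Gstp2 had 11.4 and 32.9 CPM in keto, against 15.8, 13.9 and 2.26 CPM in chow, a fitted difference of log2 1.04 ± 0.73 (edgeR adjusted p = 0.832).

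The shares of the copies in the counts differed between the libraries of S209A and chow 3, titled "fed", and the other 8 libraries. What set these shares was not tested, and title, aligner and animal cannot be told apart here. Of the counts of Gstp1 and Gstp2 together, Gstp1 took 95.4% to 96.6% in the 4 libraries of S209A and chow 3. It took 47.8% to 65.3% in the keto libraries and 57.7% to 67.8% in those of chow 1 and 2. For keto 1 heavy, with 67 such counts, the exact 95% binomial interval was 35.4% to 60.3%, and for S209A light, with 1711, it was 95.3% to 97.2%. These intervals cover counting error only. The processed pseudogene Gstp-ps on chromosome 1 took 11.1% to 29.2% of all Gstp counts in S209A and chow 3, and 60.3% to 79.0% in the other 8 libraries. Single-copy values were therefore also summed.

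**Figure D1:**
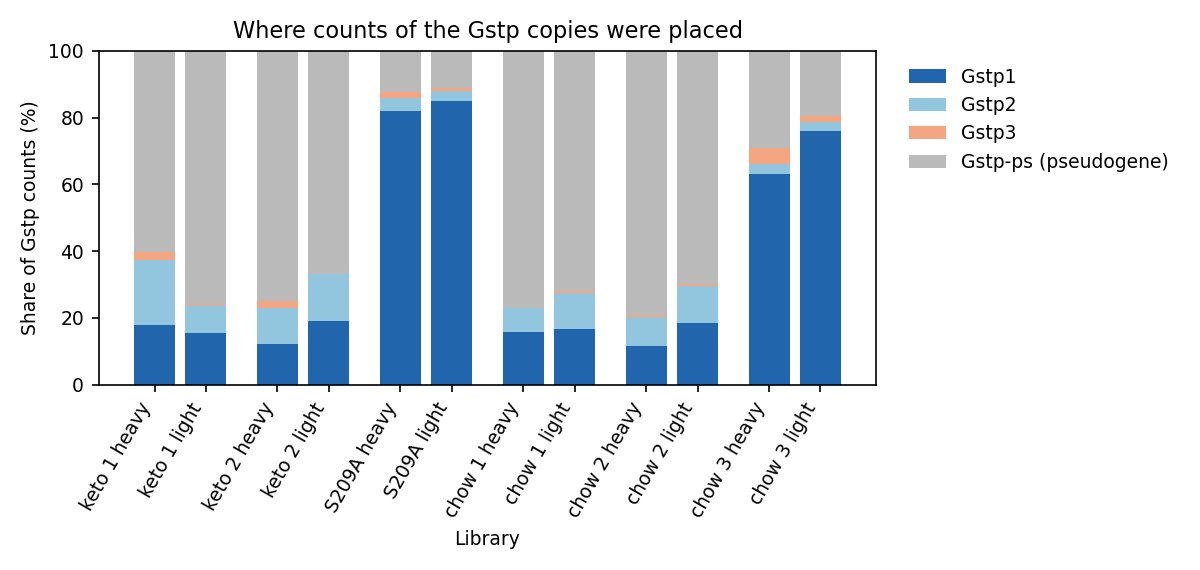
Share of counts (%) placed on Gstp1, Gstp2, Gstp3 and the pseudogene Gstp-ps in each of the 12 libraries, stacked to 100%. The pseudogene takes 60.3% to 79.0% in the keto libraries and those of chow 1 and 2, and 11.1% to 29.2% in those of S209A and chow 3.

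Summed, Gstp1 and Gstp2 had 10.5 and 14.7 CPM in the heavy pools of keto 1 and 2, and 33.0 and 77.8 CPM in their light pools. The S209A liver had 67.0 CPM in heavy and 220 CPM in light. The chow livers had 106, 38.7 and 14.2 CPM in heavy, and 40.4, 36.5 and 66.2 CPM in light. The keto heavy libraries lay to either side of chow 3 heavy, so the groups overlapped, and well below chow 1 and 2. Gstp1 alone was below every chow library in heavy, and the sum was not. The fitted keto-over-chow difference of the sum was log2 -2.06 ± 0.75 in heavy (edgeR adjusted p = 0.511) and 0.20 ± 0.56 in light (edgeR adjusted p = 0.969). Without chow 3 the heavy difference was -2.48 and passed (edgeR adjusted p = 0.0382), and without chow 1 it was -1.07 (edgeR adjusted p = 0.722). DESeq2, which passed the single copy Gstp1 in heavy, did not pass the sum. With Gstp3 and the pseudogene added, the difference was log2 -2.29 ± 0.97 in heavy (edgeR adjusted p = 0.574) and 0.65 ± 0.59 in light (edgeR adjusted p = 0.863). In bulk samples such as these, fewer cells of a type and less RNA per cell cannot be told apart.

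The heavy-over-light ratio of the summed copies was 0.319 and 0.189 in keto 1 and 2, 0.305 in S209A, and 2.62, 1.06 and 0.215 in chow 1, 2 and 3. Heavy was thus below light in both keto livers, in S209A and in chow 3, and above light in chow 1 and 2, though with libraries scaled by nuclear protein-coding counts chow 2 stood at 0.788. Gstp1, Gstp2 and Gsta4 had heavy below light in all 4 of those livers, an order that 7.69% of all genes showed. In the keto livers alone that order held for 4 of the 10 genes (Gstt1 too) and for 23.2% of all genes. The fitted heavy-over-light values were log2 -2.03 ± 0.47 in keto, -1.72 ± 0.63 in S209A and -0.21 ± 0.40 in chow. The chow value was 0.71 without chow 3 and -1.07 without chow 1. The fitted keto-minus-chow difference of these values was log2 -1.82 ± 0.61, and -2.73 without chow 3. In this difference edgeR passed 0 of the 10 genes (0.189% of all genes passed), with Gstp1 and Gstp2 at an unadjusted p under 0.05 (6.04% of all genes). DESeq2 gave an adjusted p to 3 of the 10, passing 0 of them (1.04% of all genes with one). The number that passed was higher in some other fits, such as the edgeR fit without chow 3. Nothing is read from any of these counts, because the ratio was known when the genes were chosen. With Gstp3 and the pseudogene added, the ratio was 0.201 and 0.272 in keto, 0.312 in S209A, and 3.12, 1.56 and 0.255 in chow. Each liver kept its side of 1 under this sum, with chow 3 again below it, while the order among the 4 livers below 1 changed.

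**Figure D2:**
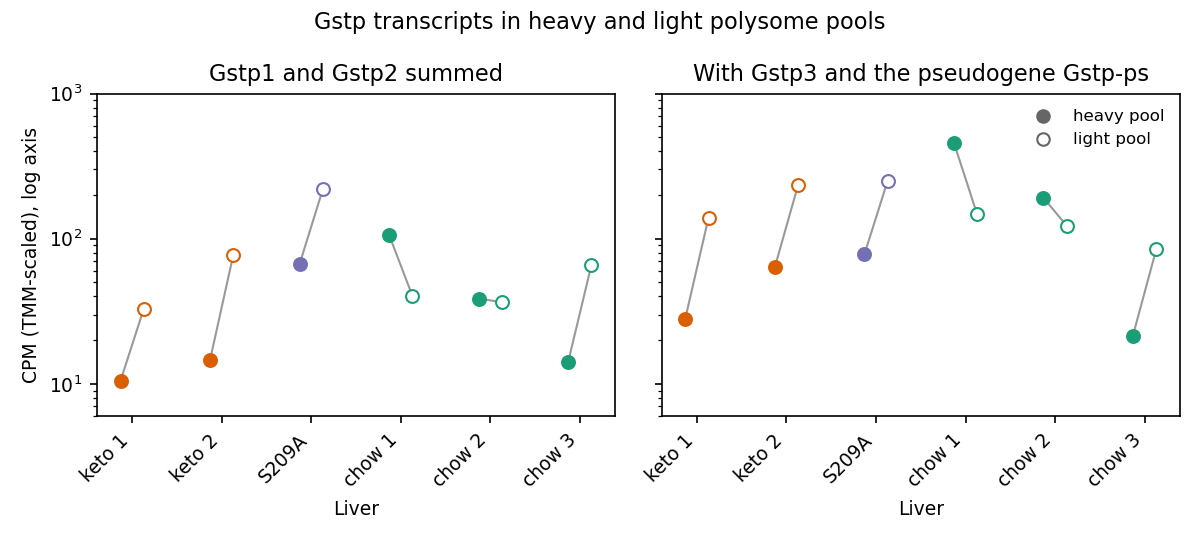
CPM on a log axis of the summed Gstp1 and Gstp2 (left) and of all Gstp copies with the pseudogene (right) in heavy (filled) and light (open) pools, joined within each liver. On this scale heavy lies below light in both keto livers, S209A and chow 3, and above light in chow 1 and chow 2 in both panels.

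The mu class genes Gstm1 and Gstm2 stood at their highest in S209A and chow 3. Gstm1 (chr3:108012250-108017973), an abundant liver enzyme that acts on epoxides and quinones, had 18.7 and 17.4 CPM in the heavy pools of keto, against 16.6, 10.9 and 51.0 CPM in chow. Its light pools had 17.2 and 38.5 CPM in keto and 25.4, 12.8 and 71.6 CPM in chow. The groups overlapped in both pools, with fitted differences of log2 -0.54 ± 0.63 in heavy and -0.42 ± 0.70 in light (edgeR adjusted p = 0.874 and 0.936). Without chow 3 both turned positive, to 0.43 and 0.53. In S209A Gstm1 had 136 CPM in heavy and 140 CPM in light, the highest of all livers.

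Gstm2 (chr3:107981702-107986420), another mu class subunit, had 95 counts in heavy and 32 in light in S209A, and 56 and 35 in chow 3. In the other 8 libraries it had 0 to 10 counts. In light pools that was 0 and 1 count in keto, against 10 and 3 in chow 1 and 2, with a fitted keto-over-chow difference over all chow livers of log2 -3.45 ± 1.55 (edgeR adjusted p = 0.796). Gstm1, Gstm2 and the kappa class gene Gstk1 were higher in each of the 4 libraries of S209A and chow 3 than in any of the other 8. That held for 3.33% of all genes. Gstm1 ran from 51.0 to 140 CPM in those 4 libraries and from 10.9 to 38.5 CPM in the other 8. Gstk1 (chr6:42245935-42250441) ran from 8.97 to 11.6 CPM in the 4 and from 0.707 to 3.14 CPM in the 8. The 4 libraries share their title wording and aligner, and what these did to the values was not tested. Gstm3 (chr3:107963696-107969174) had 15 counts or fewer everywhere, with no order that such counts could show.

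Gstk1 in keto had 3.14 and 0.773 CPM in heavy and 1.91 and 0.707 CPM in light, from 2 to 20 counts a library. In chow it had 1.99, 2.32 and 8.97 CPM in heavy and 3.13, 2.16 and 10.7 CPM in light. In light pools keto lay below every chow library (log2 -1.95 ± 0.87, edgeR adjusted p = 0.796), and in heavy the groups overlapped (log2 -1.19 ± 0.89, edgeR adjusted p = 0.772). Without chow 3 these differences were -0.91 and -0.087.

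Of the 10 genes, only the alpha class gene Gsta3 had both keto livers below every chow liver in both pools. Gsta3 (chr1:21240565-21265575), a liver subunit that in mice conjugates aflatoxin epoxide, had 52.8 and 47.5 CPM in keto heavy, against 116 to 223 CPM in the 3 chow heavy libraries. Its light pools had 39.5 and 41.7 CPM in keto, against 87.2, 81.5 and 131 CPM in chow. No keto library reached the lowest chow library in either pool. Of all genes 13.4% had keto below every chow library in heavy and 14.6% in light. The share with both was not counted, so how unusual Gsta3 is cannot be told. Outside the 10 genes, the mu class genes Gstm6 and Gstm7 showed it too, from at most 12 counts in a keto library. The fitted differences were log2 -1.65 ± 0.56 in heavy (edgeR adjusted p = 0.512) and -1.30 ± 0.54 in light (edgeR adjusted p = 0.796), and neither passed over all genes. DESeq2 called the heavy difference (log2 -1.65, adjusted p = 0.0347) and not the light one. S209A had 162 CPM in heavy and 131 in light, inside the chow range in heavy and level with the highest chow value in light.

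Heavy over light for Gsta3 was 1.34 and 1.14 in keto, 1.23 in S209A, and 2.56, 1.43 and 1.011 in chow. On the TMM scale every liver had heavy at or above light, though chow 3 stood at 0.983 when scaled by nuclear protein-coding counts. Gsta3 thus did not share the low ratios that the pi class genes had in both keto livers, S209A and chow 3. In light pools of keto, the erythroid markers summed to 48.0 to 125 CPM, against 9.51 to 22.6 CPM in chow light pools, and hepatocyte markers to 7089 to 7128 CPM, against 5092 to 9035 CPM. In heavy pools hepatocyte markers summed to 5654 to 6303 CPM in keto, against 7992 to 12009 CPM in chow, without overlap. Stellate cell markers in heavy summed to 24.5 to 31.9 CPM in keto, against 39.3 to 59.3 CPM in chow, and cholangiocyte markers to 1.10 to 2.12 CPM, against 4.08 to 13.4 CPM, also without overlap. Of these markers 0 of 8 stellate and 4 of 6 cholangiocyte ones were at 0 in keto heavy, against 0 and 2 in chow heavy. Their part in the differences of Gsta3 and the other genes was not tested.

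Gsta4 (chr9:78191966-78209349), which conjugates the lipid peroxidation product 4-hydroxynonenal, had 0.472 and 1.93 CPM in keto heavy, against 8.19, 3.04 and 2.19 CPM in chow heavy. Keto lay below every chow library, by a margin of few counts (3 and 10 in keto, 33, 21 and 30 in chow), and overlapped chow when scaled by nuclear protein-coding counts. The fitted difference was log2 -1.87 ± 0.91 (edgeR adjusted p = 0.614). In light pools Gsta4 had 1.53 and 4.24 CPM in keto and 6.44, 1.87 and 6.31 CPM in chow, which overlapped. Of the other 9 genes Gstp1 followed Gsta4 most closely over the 12 libraries (Pearson r = 0.906 on log2 CPM, a description over libraries that share animals and processing).

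Gsta2 (chr9:78331018-78347192), an alpha class subunit known for induction by antioxidants, had 1 and 15 counts in keto heavy, 24 in S209A heavy, and 25, 27 and 0 in chow heavy. In light pools it had 2 and 2 counts in keto, 10 in S209A and 8, 6 and 4 in chow. A count of 0, as in chow 3 heavy, allows up to 3 counts by counting error. The heavy groups overlapped, with a fitted difference of log2 -1.12 ± 1.54 (edgeR adjusted p = 0.900).

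The theta class gene Gstt1 (chr10:75783813-75798584), which acts on small halogenated compounds, had heavy below light in both keto livers and above it in every chow liver on the TMM scale, but not in keto 2 when scaled by nuclear protein-coding counts (1.06). Gstt1 had 3.77 and 5.99 CPM in keto heavy, against 16.4, 8.99 and 7.80 CPM in chow heavy, without overlap except when scaled by nuclear protein-coding counts. In light pools it had 6.48 and 6.72 CPM in keto, against 4.70, 6.32 and 5.14 CPM in chow, with keto above every chow library. The fitted differences were log2 -1.17 ± 0.60 in heavy (edgeR adjusted p = 0.643) and 0.29 ± 0.51 in light (edgeR adjusted p = 0.943). Its ratio was 0.582 and 0.892 in keto, 0.831 in S209A, and 3.49, 1.42 and 1.52 in chow. Heavy above light in all 3 chow livers held, on the TMM scale, for Gstt1 and Gsta3 of the 10 genes and for 12.2% of all genes.

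**Figure D3:**
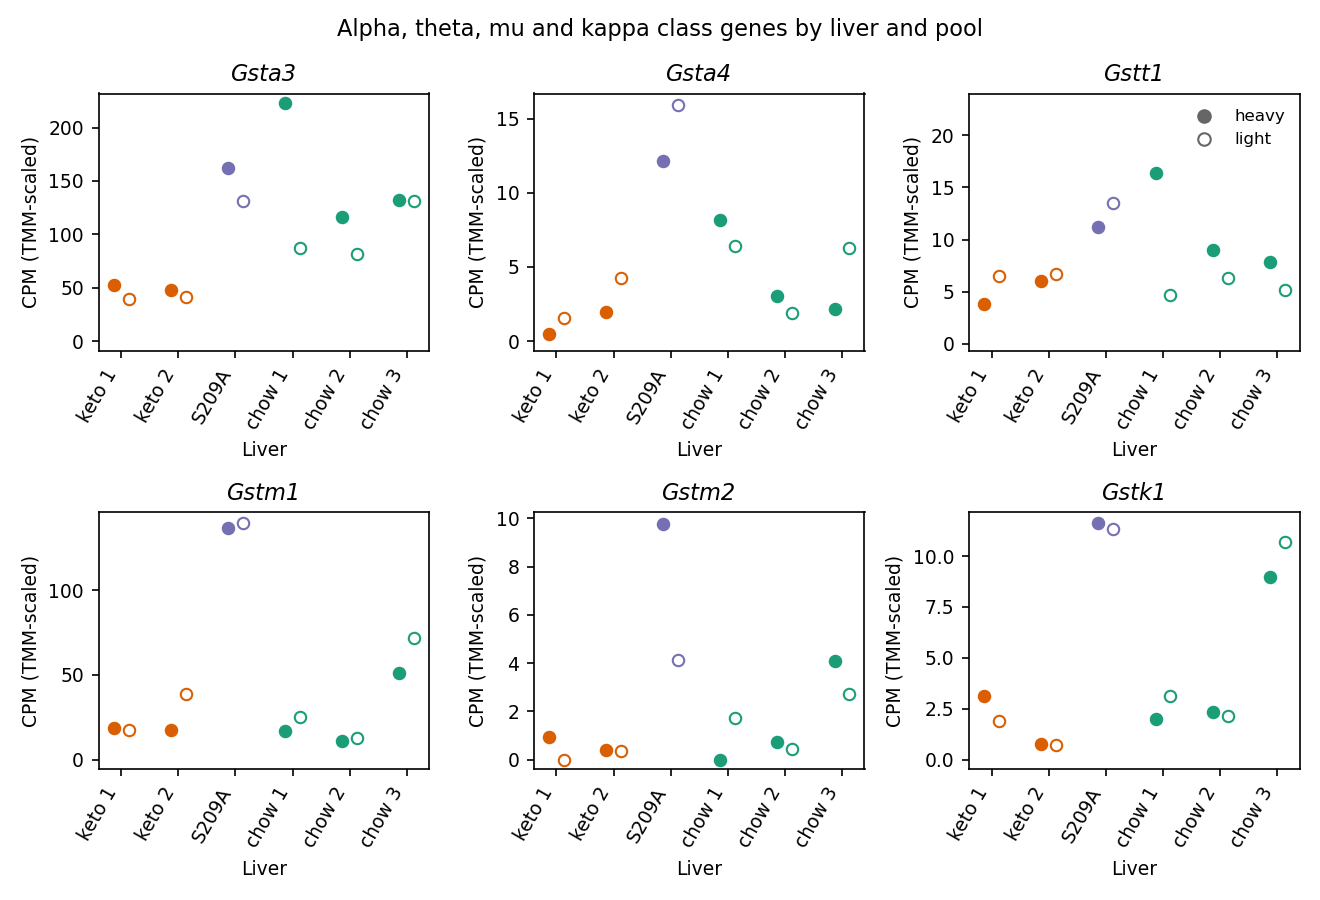
CPM of Gsta3, Gsta4, Gstt1, Gstm1, Gstm2 and Gstk1 in the heavy (filled) and light (open) pool of each liver, with colours for keto, S209A and chow. Gsta3 is lower in both keto livers than in every chow liver, and Gstm1, Gstm2 and Gstk1 are highest in S209A and chow 3.

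**Figure D4:**
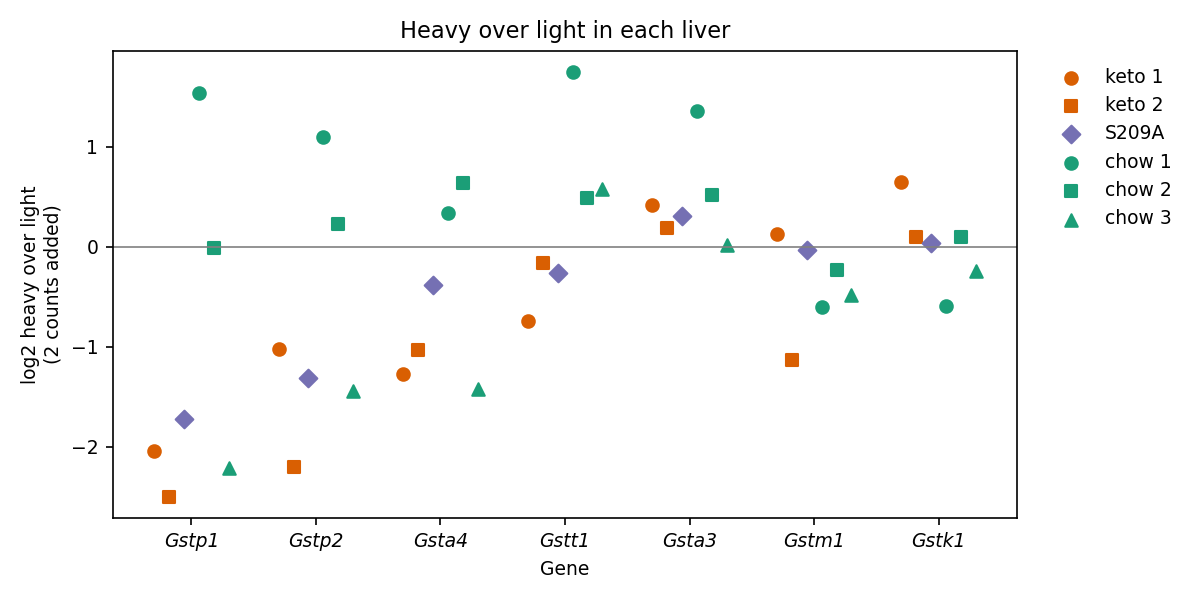
Log2 heavy over light, with 2 counts added to each library, for the 7 genes with the most counts, 1 point a liver. Chow 1, 2 and 3 lie at 1.54, -0.02 and -2.21 for Gstp1, while Gstt1 is positive in all chow livers and negative in both keto livers and S209A on this TMM scale, with keto 2 above 0 when scaled by nuclear protein-coding counts.

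Counted over the 10 genes, every fitted keto-over-chow value in heavy pools was negative (median log2 -1.38), against a median of -0.04 over all 10552 genes tested. In 9 of 10 the value was past log2 -1, as it was for 20.5% of all genes. In 4 of 10 (Gstp1, Gsta3, Gsta4 and Gstt1) both keto libraries lay below every chow library, as did 13.4% of all genes. Scaled by nuclear protein-coding counts, this held for Gstp1 and Gsta3. For Gstp1 it rested on the single copy, since the sum of Gstp1 and Gstp2 overlapped chow on both scales (keto 2 at 14.7 CPM, chow 3 at 14.2 CPM). The test passed 0 of the 10 in edgeR, as it passed 0.0% of all genes. At an unadjusted p under 0.05 stood Gstp1 and Gsta3 (8.17% of all genes). DESeq2 called the same 2 of the 5 genes to which it gave an adjusted p, and 4.0% of all genes with one. The count of 10 negative values rests on chow 3, since Gstm1 and Gstm2 were positive without it (8 of 10 negative, median -1.71).

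In light pools 8 of 10 values were negative, with a median of log2 -0.54 against -0.13 over all 10551 genes. In 3 of 10 the value was past log2 -1, as for 19.6% of all genes. Keto lay below every chow library for Gstm2, Gsta3 and Gstk1, as for 14.6% of all genes, and above for Gstt1, as for 11.2%. In edgeR 0 of 10 passed, against 0.0% of all genes, with Gstm2, Gsta3 and Gstk1 at an unadjusted p under 0.05 (6.07% of all genes), and DESeq2 called 0 of 10 and 0.0% of all genes. Without chow 3 that unadjusted number was 0. The heavy and light values above share animals and are given side by side without a test between genes.

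**Figure D5:**
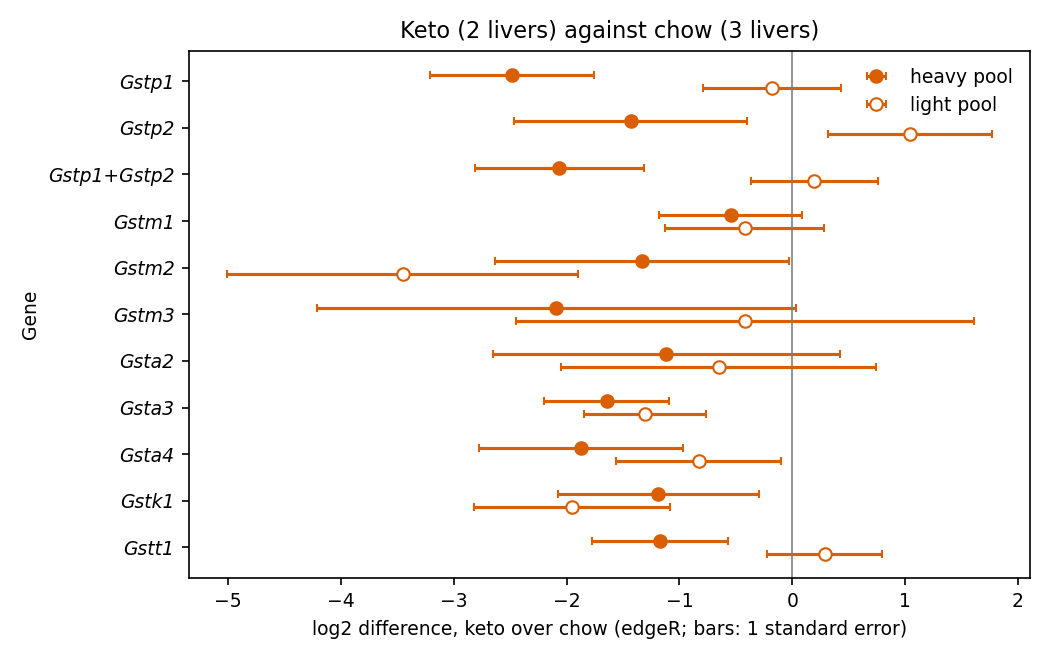
Fitted log2 difference, keto (2 livers) over chow (3 livers), with bars of 1 standard error, for each gene and the Gstp1 and Gstp2 sum, in heavy (filled) and light (open) pools. All heavy values lie left of 0, and light values of Gstp2, the sum and Gstt1 lie right of it.

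In the single S209A liver the glutathione transferases stood high, and against the 3 chow livers most of all in the light pool. There 9 of 10 fitted values were positive (median log2 1.23, with -0.16 over all genes). In 6 of 10 the value was past log2 1, as for 15.8% of all genes. In heavy pools 8 of 10 were positive (median log2 0.58, with -0.07 over all genes). In light the other pathway lists given below, except the regulators, stood high too. Positive were 13 of 13 other glutathione transferases (median log2 0.90) and 25 of 29 genes of glutathione synthesis and recycling (0.93). So were 18 of 21 other NRF2 targets (0.97), against 3 of 12 regulators (-0.38) and 4742 of all 10551 genes. With 1 animal there is no replicate check, and no p is given. Gene counts cannot show the S209A codon itself.

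Chow 3 is the liver that shares title wording and aligner with S209A. Gstp1 had 63.9 CPM in S209A heavy against 13.6 in chow 3 heavy, 4.71 times as much, and 212 against 63.9 CPM in light, 3.31 times as much. Gstp2 stood at 4.70 times in heavy and 3.58 in light, and Gsta4 at 5.55 and 2.52 times. Gstm1 stood at 2.67 times in heavy and 1.95 in light, and Gstt1 at 1.44 and 2.62 times. Gsta3 and Gstk1 were nearer, at 1.22 and 1.30 times in heavy and 1.002 and 1.06 times in light. Gstm3 in light had 3 counts in S209A against 5 in chow 3 (0.386 and 0.390 CPM). Set against chow 3 alone, the fitted values had medians of log2 1.60 in heavy and 1.19 in light, so light did not stand higher there. In light Gsta3 and Gstm3 lay near 0 (0.045 and 0.026), where the scaling decides the sign. Each side of this comparison is a single animal, and how far single livers differ was not tested.

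Other genes of the pathway were counted from 4 lists. Of 21 other glutathione transferases 13 passed the filter, and edgeR passed 0 of them in either pool, as it passed 0.0% of all genes. At an unadjusted p under 0.05 stood 2 in heavy and 2 in light, beside 8.17% and 6.07% of all genes. DESeq2 passed 1 of the 4 that had an adjusted p in heavy, beside 4.0% of all genes with one. In light it passed 0 of 13, beside 0.0% of all genes. In heavy 8 of 13 were negative (median log2 -0.38) and in light 10 of 13 (median -1.13). Over all genes, 5440 of 10552 were negative in heavy (median -0.04) and 5892 of 10551 in light (median -0.13). Positive were 5108 of all genes in heavy and 4649 in light. These counts over all genes apply to the lists given below too. Mgst1, a microsomal transferase, had 91.0 and 74.4 CPM in keto heavy, against 325, 247 and 253 CPM in chow heavy. In light it had 91.7 and 90.8 CPM in keto, against 55.7, 142 and 391 CPM in chow. Gstz1, a zeta class enzyme of tyrosine breakdown, stood the other way in both pools, at 81.5 and 58.5 CPM in keto heavy, against 25.3, 50.2 and 44.9 CPM in chow heavy. Keto lay outside the chow range for both genes in heavy.

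Of 29 genes of glutathione synthesis and recycling that passed the filter, 24 were negative in heavy (median log2 -0.62) and 22 in light (median -0.27). Mat1a, which makes S-adenosylmethionine, had 891 and 772 CPM in keto heavy and 322, 1407 and 828 CPM in chow heavy, which overlapped. Bhmt, which remethylates homocysteine, had 331 and 756 CPM in keto heavy and 254, 1053 and 841 CPM in chow heavy. Of 21 other NRF2 target genes 17 were negative in heavy (median -0.76) and 15 in light (median -0.34). Catalase (Cat), which breaks down hydrogen peroxide, was an exception, with 381 and 475 CPM in keto heavy, above the 246, 309 and 233 CPM of chow heavy. Abcc2, the canalicular exporter of glutathione conjugates, overlapped, at 96.9 and 105 CPM in keto heavy and 56.6, 139 and 135.3 CPM in chow heavy.

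Of 12 regulators (NRF2, CAR, PXR and other factors such as Rxra, Ahr and Hnf4a) 8 were positive in heavy (median log2 0.39) and 8 in light (median 0.15). The genes of CAR (Nr1i3) and PXR (Nr1i2) were not among the positive ones in heavy, at log2 -0.05 and -0.11. In light they were at -0.95 and 0.37. The gene of NRF2 itself, Nfe2l2, named here after its values were seen, was among the negative ones in heavy. It had 6.45 and 3.28 CPM in keto heavy, against 29.0, 27.8 and 12.3 CPM in chow heavy, without overlap. The fitted difference was log2 -2.23 ± 0.61 (edgeR adjusted p = 0.476), which passed in DESeq2 (adjusted p = 0.0314) and without chow 3 (-2.50, edgeR adjusted p = 0.0427). In light Nfe2l2 had 9.53 and 5.66 CPM in keto and 8.52, 4.60 and 11.5 CPM in chow, which overlapped. Hnf4a, a factor of hepatocyte identity, had 168 and 110 CPM in keto heavy and 29.3, 125 and 74.4 CPM in chow heavy. Rxra, the partner of CAR and PXR, had 104 and 67.0 CPM in keto heavy, against 21.4, 58.4 and 45.7 CPM in chow heavy, without overlap. In edgeR 0 genes of these 3 lists passed in either pool. At an unadjusted p under 0.05 stood 5 glutathione, 5 NRF2 target and 1 regulator gene in heavy, and 1, 3 and 0 in light, beside 8.17% of all genes in heavy and 6.07% in light. In heavy DESeq2 passed 1 of 18, 2 of 14 and 1 of 10 that had an adjusted p, beside 4.0% of all genes with one, and 0 in light.

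Outside the glutathione transferases, the genes nearest to the mean log2 CPM of the 10 genes over the 12 libraries were Cbs (r = 0.928), which is in the list of glutathione synthesis and recycling, Asph (0.894), Mup20 (0.893), Car3 (0.882) and Ambp (0.882), of 2833 candidates. The points share animals, depth and processing, and Mup20 has near-identical copies.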

How the data were processed

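Heavy and light polysome RNA of 6 livers was sequenced in 12 libraries. The deposited tables hold raw counts by Entrez ID. Per the labels' protocols, libraries were made from 10 ng of RNA with a stranded total RNA kit. Per the submitters' processing notes, Trimmomatic, HISAT2, StringTie and build mm10 were used, and per the file headers aligners differed between livers. Versions, the counter, its strand setting and its rule for reads with several places are not given in the sources used, so copies, antisense and overlapping genes are uncertain.

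Symbols came from RefSeq (GRCm38.p6, 25275 of 27179 IDs). With filterByExpr (minimum 10 counts) and TMM, edgeR 4.0.16 quasi-likelihood tests ran two-sided over the whole table, and p was adjusted by Benjamini-Hochberg (threshold 0.05). Heavy against light used 1 model of 12 libraries with the animal as a block. Within each pool (10552 and 10551 genes) chow, keto and S209A were 3 groups of 1 fit. An SE is the absolute log2 value over the square root of F. Sums of copies were fitted in place of the copies. The fits were tested on simulated data. DESeq2 1.42.0 was an alternative, and an adjusted p that it left out stayed out of its counts. No 2 libraries were identical, and replicates differed beyond sampling noise.

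The members and lists were chosen with earlier results of these data known. Named from each list were genes that passed in a keto comparison, otherwise the 2 of highest mean CPM, and the 5 protein-coding genes (mean of at least 50 counts) of nearest pattern. Of 9 cell type lists, lymphocyte and exocrine pancreas markers summed to at most 6.01 and 2.81 CPM in any library, cholangiocyte markers to 13.4 and adipocyte markers to 30.6. Kupffer cell markers summed to 30.9 to 94.8 CPM, endothelial to 39.0 to 124 and stellate to 24.5 to 59.3. Heavy and light pools pair by animal in the labels (deviations within chow 1, 2 and 3 correlated at r = 0.307, 0.305 and 0.463). Animals are the replicates. The tables held 0 ERCC IDs, and the time label, 0 h in the labels against 24 h in the protocol, was not used.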

Additional observations from a re-analysis of the deposited data

Results flagged for a closer look

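Gstt1 stood apart because its heavy over light ran in opposite directions in the diet groups on the TMM scale. On the log2 scale, with 2 counts added, it was -0.74 and -0.16 in keto 1 and 2, against 1.74, 0.49 and 0.58 in chow 1, 2 and 3. The fitted keto-minus-chow difference was -1.43 ± 0.80, and the edgeR test of that difference did not pass over all genes (adjusted p = 0.898). Nothing is read from that test, because this ratio was known when the genes were chosen. The counts of Gstt1 were 19 to 34 in the keto libraries and 27 to 107 in the chow libraries. S209A stood at -0.26. Scaled by nuclear protein-coding counts, the linear ratio was 0.604 and 1.06 in keto, against 2.28, 1.06 and 1.47 in chow, so keto 2 was no longer opposite.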

How the results depend on the processing

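Depth limits Gstm2, Gstm3, Gsta2 and the keto values of Gsta4 and Gstk1, and 1 library (chow 3) moves many values. Of 332 values of single genes in the diet comparisons under the alternatives, 29 changed sign and 11 came to pass. Nothing is read from those of them that lie in heavy over light. No call could be lost, because 0 of the 10 genes passed in the main fits of these comparisons. Of 513 values given as a description, 33 changed sign and 20 moved by over 1 SD. The cause was not tested. A scaling by nuclear protein-coding counts moved the median of all genes, to 0.37 in heavy keto over chow and 0.63 in the diet effect on heavy over light.

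For keto over chow in heavy, 0 of the 10 genes passed, against 2 in DESeq2, 1 (Gstp1) with no filter on low counts, 1 with the title wording as a batch and 1 with a block for the replicate number. Leaving out 1 liver gave 0 to 1, the 1 without chow 3. Calls over all genes were 0, against 111, 112, 126 and 83 under those 4, and 67 without chow 3. The Gstp1 and Gstp2 sum (-2.06) passed at -2.52 with the title batch and -2.36 with the replicate block, and ran from -2.48 to -1.07 when 1 liver was left out. The replicate numbers do not pair the diets (r = -0.0146 in heavy and -0.0275 in light between same-numbered deviations), so the block result is given only here. Gstm1 in heavy turned to 0.43 without chow 3, 0.40 with the title batch, 0.42 with the replicate block and 0.41 without chow 3 and S209A (an alternative chosen after seeing the data), and was -0.89 without chow 2. Gstm2 in heavy turned to 0.73, 0.69 and 0.88 under the first 3, and was -2.10 without keto 1.

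For keto over chow in light, the median of the genes (-0.54) was -0.17 at a mean of at least 50 counts (4 genes), 0.28 without chow 3 and S209A (7 genes), and -1.06 to -0.22 when 1 liver was left out. The summed Gstp value (0.20) turned to -0.02 without chow 2 and -0.50 without keto 2, and had its highest value of 0.70 among such fits. Gstp1 turned to 0.48 without chow 3, 0.27 without keto 1, 0.48 with the title batch, 0.40 with the replicate block and 0.51 without chow 3 and S209A, and was -0.75 without keto 2. Gstm1 turned to 0.53, 0.07, 0.53, 0.51 and 0.56 under the same 5, and Gstm3 to 0.34 without keto 2 (-4.21 without keto 1).

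For the diet effect on heavy over light, the median of the genes (-0.73) was -1.33 at a mean of at least 50 counts, -1.51 with the title batch and -1.62 without chow 3 and S209A, and ran from -1.47 to -0.14 when 1 liver was left out. How many of the chosen genes passed is not given here, because this ratio was known when they were chosen. Calls over all genes were 20, against 228 with the title batch, 103 without chow 3 and S209A, and 214 without chow 3. The summed Gstp value (-1.82) was -2.77 with the title batch and -2.77 without chow 3 and S209A. It ran from -2.73 to -0.96 when 1 liver was left out. Gstm1 (-0.06) turned to 0.44 with nuclear scaling, 0.033 at a mean of at least 50 counts, 0.065 without chow 2 and 0.57 without keto 2 (-0.70 without keto 1). Gstm3 turned to 3.83 without keto 1 (-6.03 without keto 2). Gsta2 turned to 0.28 with nuclear scaling, 0.55 without chow 1, 0.53 without chow 2 and 0.88 without keto 1 (-2.30 without keto 2). Gsta3 turned to 0.19 with nuclear scaling and 0.040 without chow 1 (-0.59 without chow 3).

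For heavy over light itself, the median in chow (-0.08) was 0.72 with the title batch, 0.67 without chow 3 and S209A, and -0.25 to 0.69 when 1 liver was left out. In keto (-0.31) it was -0.53 at a mean of at least 50 counts, -0.065 with no replicate block for the animal, and -0.92 to -0.028 when 1 liver was left out. For S209A over chow the median was 1.60 in heavy with the title batch, and 0.72 in light with nuclear scaling. The summed Gstp value was 2.23 in heavy and 1.77 in light with the title batch, 1.73 in light with nuclear scaling, and -1.52 and 1.13 with the pseudogene and Gstp3 added. Leaving out 1 liver gave medians of 0.83 to 1.64 in light.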
